A study of Mus musculus with 768 samples.

Results

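The cells described here are mouse embryoid body cells taken at 0 h, before any doxycycline, and divided by whether the pluripotency gene Sox2 was listed above 0. Both the cells and the groups were chosen by measured values, the number of genes above 0 and the Sox2 level, so these values are given as a description. A cell was kept when at least 2000 genes were above 0 TPM (a gene's share of a cell's transcripts, corrected for length and scaled to a total of 1000000). Of the 96 cells sequenced at 0 h, 37 were kept, out of 368 kept cells among 768 in the whole series. Sox2 was above 0 in 23 of the 37 (called Sox2-detected) and equal to 0 in 14 (called Sox2-zero). The division is one of detection and not of high against low level: 9 of the 23 Sox2-detected cells had less than 10 TPM.

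All cells carry the same doxycycline-inducible cassette, iNgn2.Isl1.Lhx3.V5, for the factors Ngn2 (Neurog2), Isl1 and Lhx3 with a V5 tag, in the mouse embryonic stem cell line Ainv15, and the 0 h cells had received no doxycycline. The stem cells were kept with LIF, a GSK3 inhibitor (CHIR) and the MEK inhibitor PD0325901, then grown for 2 days as embryoid bodies, floating aggregates, in a medium for which none of these additions is listed. The cells compared with them at 6, 12, 18, 24, 30, 36 and 48 h came from embryoid bodies of the same line given 3 µg/ml doxycycline. Single viable cells were sorted into plates and read by SMART-Seq2, a full-length RNA-seq method. The labels name no separate cultures, so each time point is 1 sample. Cells of a sample are not replicates of a condition, and therefore no p-value or standard error is given. Every ± is the standard deviation between cells of that sample, and a 2-fold difference is used only as a measure of size.

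Sox2 is an HMG-box transcription factor that binds DNA together with Oct4 (gene Pou5f1) at many enhancers and promoters of pluripotent cells. Stem cells in the inhibitor medium resemble the naive, preimplantation epiblast. On its removal they lose naive factors such as Klf4 and Esrrb and gain formative or primed markers such as Otx2, Pou3f1 and Fgf5, while Sox2 and Oct4 stay on. Sox2 is later kept in neural progenitors and lost from mesoderm and endoderm.

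Sox2 lies on chromosome 3 at chr3:34650405-34652461 (mm10, GENCODE M21, plus strand) as a gene of 1 exon. It sits inside the longer noncoding gene Sox2ot (chr3:34104270-34682619, same strand), of which 0 annotated exons overlap it. The stretches below show Oct4-type motifs in 2 promoters of the network, and were chosen because Sox2 defines the groups and the Nanog promoter is known to be bound by Sox2 and Oct4. They are RefSeq sequence of GRCm38.p6, plus strand, 5′ to 3′, with the motif in capitals.
Sox2, chr3:34649872-34649926: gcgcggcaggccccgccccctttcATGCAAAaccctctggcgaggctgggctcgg
Nanog, chr6:122707390-122707449: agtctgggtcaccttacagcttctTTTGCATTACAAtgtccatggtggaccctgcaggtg
In the Sox2 stretch the capitals are the octamer-like ATGCAAA, from 99 to 93 bases before the start that RefSeq gives for the gene, which lies upstream of the GENCODE start above. In the Nanog stretch they are the composite Sox-Oct motif (TTGT, any base, then ATGCAAA), read on the other strand, from 75 to 64 bases before its RefSeq start. Promoter windows ran from 250 bases before to 50 bases after a RefSeq start, and both strands were searched. The composite motif, which contains the octamer-like one, was found in 12 of 32851 windows (0.0365%) and ATGCAAA in 4.63% of them. Of the 63 genes in the core, Sox family, naive, and formative and primed lists, with Sox2 itself, 39 had a window. ATGCAAA was found for 6 of these 39 (Nanog, Pim2, Sox1, Sox12, Sox2 and Zfp42), and the Sox-like motif CATTGT for 7. CATTGT was in 12.6% of all windows. A gene was counted when any of its windows held the motif, so counts of genes and shares of windows are not directly comparable. A match describes letters only and says nothing on binding.

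Sox2 levels among the Sox2-detected cells ran from 1.54 through a median of 22.4 to 347 TPM. In 9 cells the level was under 10 TPM, in 10 cells between 10 and 100 TPM, and in 4 cells 100 TPM or more. The lowest values above 0 were 1.54, 1.59 and 2.42 TPM, just inside the division. Over all 37 cells the mean was 36.8 TPM and the median 4.11 TPM, and the 3 highest cells held 52.2% of the summed Sox2. Its coefficient of variation (SD over mean) was 1.96, against a median of 1.76 over the 5361 genes that passed a filter on low values. That filter asked for a mean of at least 10 TPM over all 37 cells and a value above 0 in at least 25% of them, without regard to group. With 23 Sox2-detected and 14 Sox2-zero cells, a gene seen only in the larger group passes more easily than one seen only in the smaller.

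The number of genes detected did not separate the groups. The Sox2-detected cells had 3031 genes at the lowest, 5389 at the median and 6580 at the highest, with a mean of 5262 ± 882 (n = 23 cells). The Sox2-zero cells had 3441, 5090 and 7044, with a mean of 5080 ± 979 (n = 14 cells). The ranges overlapped almost throughout, the shallowest kept cell was Sox2-detected and the deepest was Sox2-zero. At 10 TPM or more the medians were 3236 and 3236.5 genes. The Spearman correlation of Sox2 with genes detected was 0.178 over the 37 cells, and with Sod1, the most abundant transcript, -0.119. Sod1 took 66623 ± 31104 TPM in Sox2-detected and 63025 ± 23778 TPM in Sox2-zero cells.

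**Figure D1:**
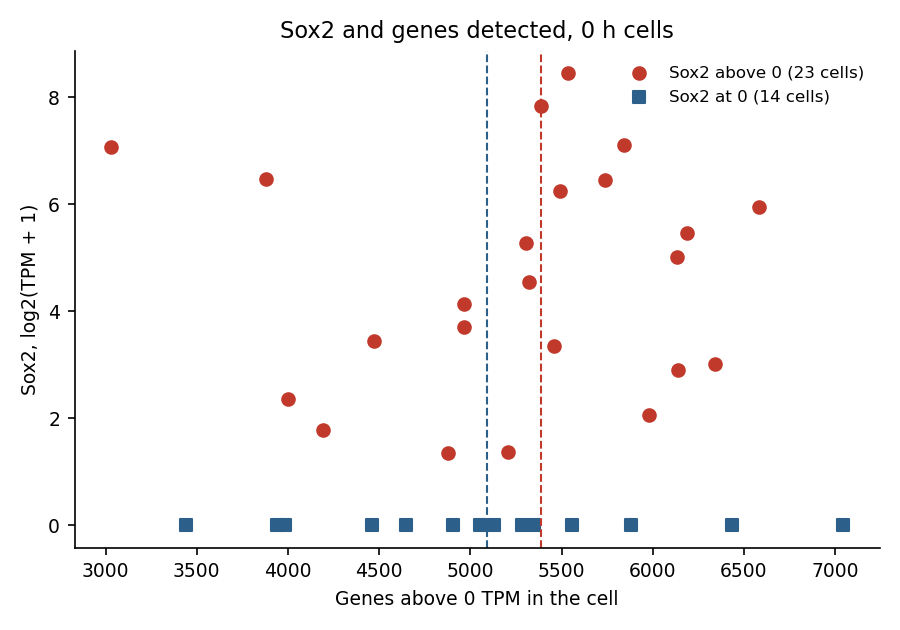
Each point is a kept 0 h cell, placed by the genes above 0 TPM (x axis) and by Sox2 as log2(TPM + 1) (y axis), with dashed lines at the median number of genes of each group (5389 and 5090). Sox2-zero cells lie along the whole range of genes detected, and the highest Sox2 value, 347 TPM, is in a cell of middling depth.

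The cells left out were far shallower. The 59 had a median of 366 genes, the closest to the limit had 1970 and 1800, and the closest kept cells had 3031 and 3441. Sox2 was listed at 0 in all 59 (a share of at most 5.08% is allowed), and these cells were not used further.

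Values of 0 were common for genes of the level of Sox2. Among the 1508 passing genes with a mean of 25 to 50 TPM, a range that includes Sox2, the median gene was above 0 in 51.4% of the 37 cells (quartiles 32.4% and 70.3%). Sox2 was above 0 in 62.2% (exact 95% binomial interval 44.8 to 77.5%, counting error only), more often than 63.5% of those genes. Hprt, a purine salvage enzyme gene that every cell uses, failed the filter and was above 0 in 4 of 37 cells (10.8%). It is 1 of 14 matched housekeeping genes, of which 4 were above 0 in all 37 cells. Whether the 14 Sox2-zero cells lacked Sox2 RNA or had it missed was not tested. The same uncertainty holds for every share of cells below, and for genes with any listed 0 the spread is given as a range or a count of cells.

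**Figure D2:**
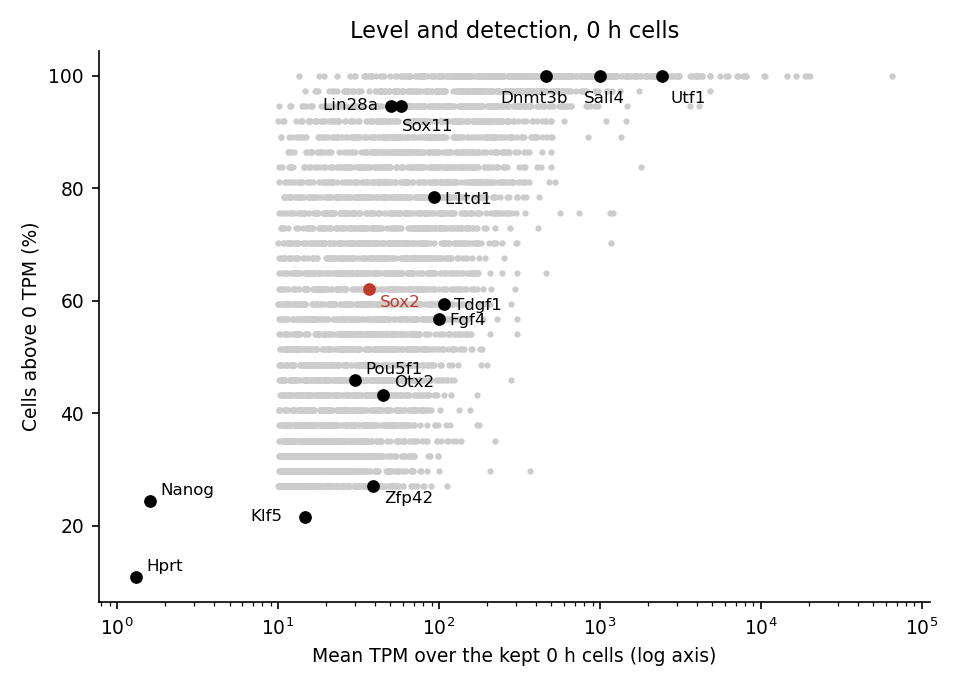
Each grey point is a gene that passed the filter, by its mean TPM over the 37 kept 0 h cells (x axis, log scale) and the percentage of cells above 0 (y axis), with Sox2 in red and other named genes in black. Sox2 at 62.2% lies within the band of genes of its level, Sall4, Utf1 and Dnmt3b are at 100%, and Nanog and Hprt are at the lower left, under the filter.

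The 0 h cells carried RNA of many pluripotency genes whichever way Sox2 read. Of 16 core pluripotency genes (Sox2 not counted), 5 were above 0 in all 37 cells: Utf1, Dppa5a, Sall4, Dppa4 and Rif1. Utf1, a chromatin-associated factor of pluripotent cells, had 202, 2279 and 5717 TPM (lowest, median, highest) in Sox2-detected and 307, 1903 and 5422 TPM in Sox2-zero cells. The groups overlapped almost wholly, and the means were 2669 ± 1481 and 2048 ± 1251 TPM. Sall4, a zinc finger factor that works with Oct4, had means of 921 ± 510 and 1152 ± 836 TPM, with the higher mean in Sox2-zero cells. Dppa4, a chromatin protein that acts with Dppa2, had 599 ± 596 and 469 ± 419 TPM, and ran from 4.36 to 1895 TPM among Sox2-detected cells alone. Lin28a, an RNA-binding protein that blocks let-7 maturation, was above 0 in 35 of 37 cells and Trim71, an RNA-binding ubiquitin ligase, in 36.

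The network's central factors were seen far less often. Pou5f1 was above 0 in 17 of 37 cells, 10 of 23 Sox2-detected and 7 of 14 Sox2-zero, with a mean of 30.0 TPM over all cells and a highest value of 317 TPM. Nanog was above 0 in 9 cells (6 and 3), with a mean of 1.61 TPM, and failed the filter. Counting Pou5f1, Nanog and Sox2 together, 6 cells had none above 0, 14 had 1, 16 had 2 and 1 cell had all 3. The Spearman correlation of Pou5f1 with Sox2 over the 37 cells was -0.00445, that is, their ranks were not related in this sample.

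Of the 15 core genes that passed the filter, 2 were at least 2-fold higher in Sox2-detected cells and 0 at least 2-fold lower. Over all passing genes the corresponding shares were 17.6% (943 of 5361) and 15.3% (822), so the count for the core list is no larger than for genes in general. All fold changes here are differences of log2(mean TPM + 1), which understates differences of low genes. The core median was 0.33, beside 0.01 over all passing genes (quartiles -0.60 and 0.69). With the mean of log2 values per cell in place of the log of the mean, it was -0.17. Fgf4, a growth factor gene with a well-known Sox2-Oct4 enhancer, was above 0 in 11 of 23 and 10 of 14 cells. Its log2 fold change of 0.94 lay between -2.22 and 1.91 under other settings. L1td1, an RNA-binding protein of pluripotent cells, was above 0 in 19 of 23 and 10 of 14 cells, at a log2 fold change of 0.67.

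Dppa5a was the core gene whose level differed most evenly over the cells. It encodes a small RNA-binding protein of early embryos and pluripotent cells. The Sox2-detected cells had 794, 2986 and 6012 TPM (lowest, median, highest) and the Sox2-zero cells 46.8, 1306 and 3367 TPM. The ranges overlapped, but 6 of the 14 Sox2-zero cells lay below the lowest Sox2-detected cell and 1 lay above the Sox2-detected median. The means were 3032 ± 1511 (n = 23 cells) and 1379 ± 1139 TPM (n = 14 cells), a ratio of 2.20 and a log2 fold change of 1.14. A fold this large is common here: 14.9% of all passing genes had as high a value or a higher one. Its rank correlation with Sox2 was 0.593 over 37 cells, the third highest among the 5361 genes. This value uses the same Sox2 levels that define the groups and is one of the extremes of 5361 values, so it is a description only. The correlation was 0.578 with genes detected held fixed and 0.417 among the 23 Sox2-detected cells alone. The log2 fold change stayed between 0.97 and 1.76 under the 13 alternatives that recompute it. Dppa5a lies at chr9:78367052-78368177 (mm10, minus strand), and GENCODE M21 places its pseudogene copies Dppa5b and Dppa5c on the same chromosome. The table has a Dppa5a row and no row for those copies, and with the assignment of shared reads not given in the sources used here, its absolute level is uncertain.

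**Figure D3:**
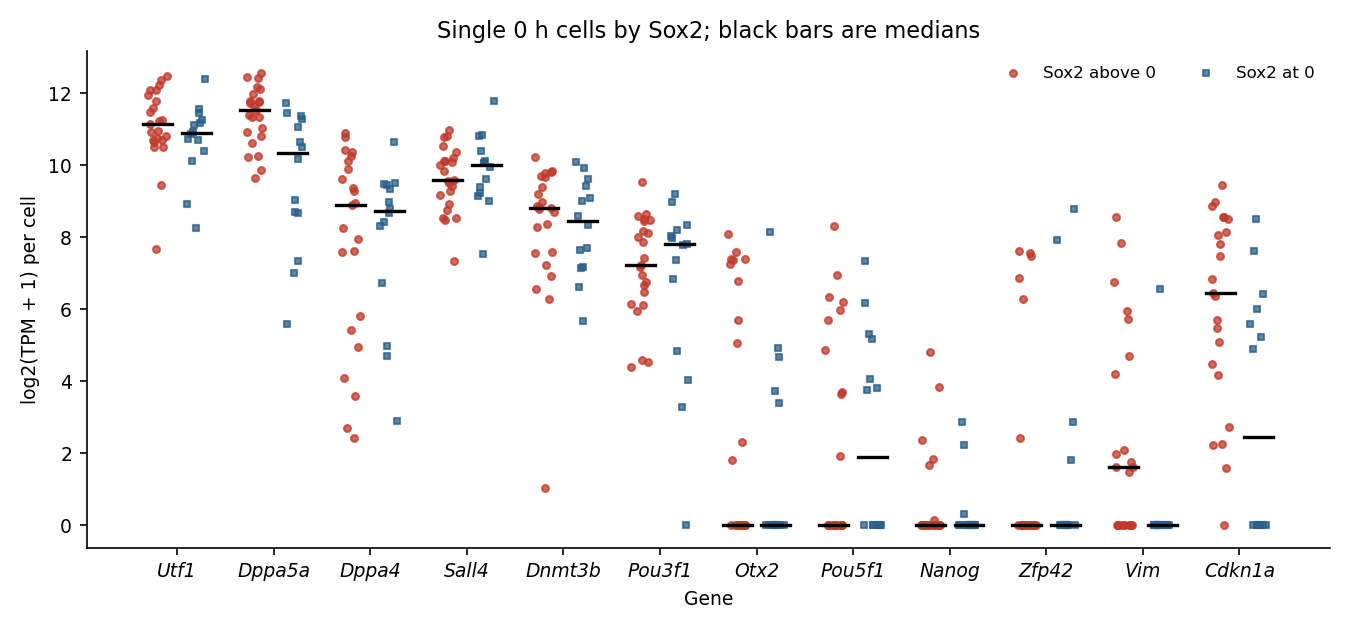
Each point is a kept 0 h cell, with log2(TPM + 1) on the y axis for 12 genes along the x axis, red circles for the 23 Sox2-detected and blue squares for the 14 Sox2-zero cells, and black bars at the group medians. Dppa5a shows the lower-lying Sox2-zero cells (medians 2986 and 1306 TPM), Utf1 and Sall4 overlap, and for Otx2, Nanog and Zfp42 the medians are at 0 in both groups.

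Most naive factors failed the filter, as did most genes in general (5361 of 27723 passed). Of 16 naive pluripotency genes 2 passed the filter, Zfp42 and Stat3, the transcription factor downstream of LIF. Zfp42 (Rex1), a naive marker, was above 0 in 6 of 23 and 4 of 14 cells and reached 444 TPM. Klf4 was above 0 in 3 of 37 cells, Esrrb in 4, Tbx3 in 3 and Klf2 in 1, while Prdm14 and Tcl1 were listed at 0 in all 37, which allows a share of cells above 0 of up to 8.11%. The 3 Klf4 cells were all Sox2-detected. Tfcp2l1, a further naive factor, was above 0 in 20 cells at a mean of 2.54 TPM. Stat3 was above 0 in 13 cells, Fbxo15 in 11, Klf5 in 8 (mean 14.7 TPM) and Nr5a2 in 6 (mean 12.8 TPM).

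Formative and primed genes were mixed, and the steadily detected ones did not follow Sox2. Dnmt3b and Dnmt3a, the methyltransferases that set new DNA methylation at this stage, and Etv5, a target of FGF signalling, were above 0 in all 37 cells. Dnmt3b had 478 ± 326 TPM in Sox2-detected and 437 ± 335 TPM in Sox2-zero cells, and Etv5 365 ± 238 and 249 ± 94.8 TPM. Pou3f1 (Oct6), a primed-state POU factor, was above 0 in 36 of 37 cells, with medians of 150 and 223 TPM. Otx2, which directs Oct4 to new enhancers in primed cells, was above 0 in 11 of 23 and 5 of 14 cells, and Fgf5 in 7 of 23 and 2 of 14. Of 16 listed genes 9 passed the filter: 2 were at least 2-fold higher in Sox2-detected cells (Otx2 at 1.13 and the Nodal inhibitor Lefty1 at 1.08), 1 was lower, and the median was 0.13. The shares over all passing genes were 17.6% higher and 15.3% lower. The lower gene was Pim2, a survival kinase gene, at -1.36, with medians of 5.38 and 77.0 TPM. Otx2 turned to -0.37 in depth-matched groups and Lefty1 to -0.12 with the mean of log2 values, whereas Pim2 kept its sign in all 13 alternatives (-2.22 to -0.93).

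The other Sox genes were also set beside Sox2. Of the 14 listed genes, other Sox family members and Sox2ot, 3 passed the filter: Sox11, Sox4 and Sox12, at log2 fold changes of -0.43, 0.14 and -0.28. Sox11, a factor of neural and early embryonic cells, was above 0 in 35 of 37 cells, with medians of 32.5 and 60.9 TPM. Sox3 and Sox1, the closest relatives of Sox2, were above 0 in 11 and 2 cells, and Sox21 in 0. Sox2ot was above 0 in 11 of 23 Sox2-detected and 8 of 14 Sox2-zero cells, at a mean of 2.85 TPM. The host transcript thus appeared about as often without Sox2 as with it.

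Among DNA methylation genes, 7 of 9 passed, with 1 higher, 1 lower and a median of 0.13, where 17.6% and 15.3% of all passing genes were higher and lower. Uhrf1, which brings Dnmt1 to newly copied DNA, was above 0 in all 37 cells at 273 ± 156 and 299 ± 122 TPM. Dnmt1, the maintenance methyltransferase, had a log2 fold change of 1.59 but was above 0 in 12 of 23 Sox2-detected and 13 of 14 Sox2-zero cells. Its mean rested on 1 Sox2-detected cell with 650 TPM, and without the highest cell of each group the value was -0.83. Tet3, a methylcytosine oxidase, was at -1.85, from 12 of 23 and 4 of 14 cells, and turned to 0.22 with the mean of log2 values. Dnmt3l, the cofactor of Dnmt3a and Dnmt3b, was above 0 in 6 of 23 Sox2-detected cells and listed at 0 in all 14 others, and failed the filter.

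All 12 chromatin regulators passed and none was 2-fold apart, beside 32.9% of all passing genes, with a median of -0.19. The Polycomb methyltransferase Ezh2 lay lowest at -0.73 and Mbd3, a subunit of the NuRD complex, highest at 0.92. Of 15 FGF, LIF, BMP and WNT signalling genes 8 passed. Among these, 0 were 2-fold higher and 1 was lower, beside 17.6% and 15.3% of all passing genes. The lower gene was Lifr, the LIF receptor, with medians of 2.70 TPM in Sox2-detected and 49.1 TPM in Sox2-zero cells. It was above 0 in 19 of 23 and 13 of 14 cells, at a log2 fold change of -2.36 that kept its sign in all 13 alternatives (-4.50 to -1.13). Spry2, a feedback inhibitor of FGF signalling, was above 0 in all 37 cells at 931 ± 725 and 771 ± 654 TPM. The BMP target Id1 was listed at 0 in all 37.

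**Figure D4:**
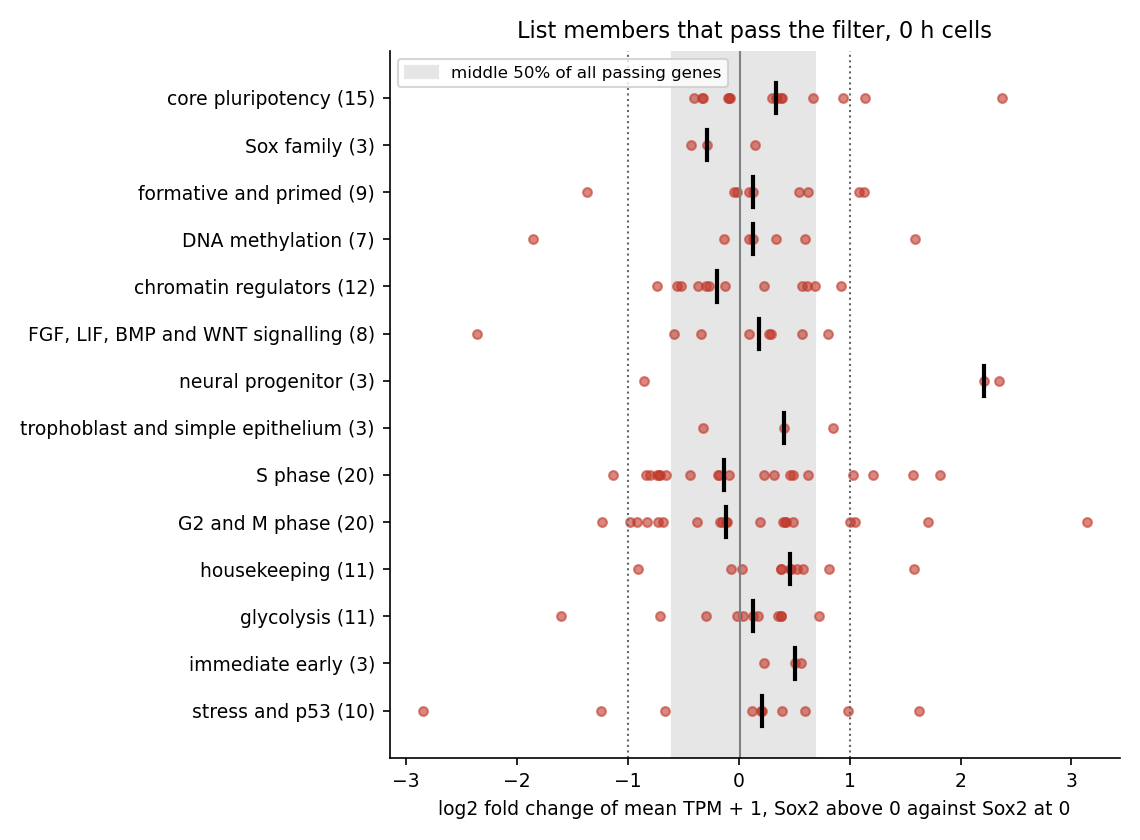
Each red point is a list member that passed the filter, by its log2 fold change between Sox2-detected and Sox2-zero 0 h cells (x axis), for lists with at least 3 such members (number in brackets), with black bars at list medians, dotted lines at 2-fold and grey shading over the middle of all 5361 passing genes (-0.60 to 0.69). Every list median but that of the 3 neural progenitor genes, 2.21, lies inside the shading.

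Most markers of other cell types failed the filter on low values, as did most genes in general. Of all 27723 genes, 5361 passed and 15525 were above 0 in any of the 37 cells. The counts below are to be read beside these, and do not by themselves set the markers apart from other genes. Of 14 mesendoderm genes 0 passed the filter and 8 were in no cell, that is, listed at 0 in all 37 (the limit of 8.11% again). Wnt3 was the most often seen, in 6 cells, and T (Brachyury), a mesoderm factor, was in 1. Of 16 primitive and visceral endoderm genes 7 were in no cell, including the defining factors Gata4 and Gata6, and those that passed were the matrix genes Sparc and Lamb1. Of 11 trophoblast and simple epithelium genes 3 were in no cell, among them the trophoblast factor Cdx2. Elf5, also a trophoblast factor, was above 0 in 28 of 37 cells at a mean of 3.72 TPM, and the keratin gene Krt8 in 13 at a mean of 4.48 TPM. Epcam and Cdh1, adhesion genes shared by epithelia and pluripotent cells, were above 0 in 35 and 34 of 37 cells. Of 10 fibroblast genes Col1a2 passed alone, and Col1a1, Lum, Postn and S100a4 were in no cell. Among 10 early neuron genes Map2 and Ina passed, at 0.03 and 0.35. Of 7 germ cell genes Dazl and Tfap2c passed, at -1.10 and 0.85, and Dazl was above 0 in 8 of 23 and 7 of 14 cells. The 5 matched 2-cell-like genes failed the filter. Of the cassette's factors, Neurog2 was in no 0 h cell, Isl1 in 2 and Lhx3 in 1, all of them Sox2-zero. The cassette and the cells' own copies share these symbols.

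The neural progenitor list was the one with its median outside the middle of all genes, and rested on few genes. Of 14 members 3 passed, 2 of them at least 2-fold higher in Sox2-detected cells, where 17.6% of all passing genes were. Vim, the intermediate filament gene vimentin, was above 0 in 13 of 23 Sox2-detected cells (56.5%, 34.5 to 76.8%) and 1 of 14 Sox2-zero cells (7.14%, 0.181 to 33.9%), with highest values of 378 and 94.0 TPM. Its log2 fold change was 2.35, and 0.38 to 5.86 under the 13 alternatives. The intervals hold counting error only, and Vim was named for its large fold, so they do not test the groups against each other. Hes1, a Notch target, was above 0 in 10 of 23 and 3 of 14 cells at a log2 fold change of 2.21, but -0.38 in the shallower cells. By the Sox2-zero cells alone, Vim (mean 6.7 TPM, 7.14% of cells) and Hes1 (21.4% of cells) would not reach the filter. Both passed through the group where they were higher, so the list median is not independent of the filter. Ncam1, a neural adhesion gene, lay at -0.85. The defining progenitor factor Pax6 was in no cell, Sox1 was in 2, and Vim is expressed in many cell types. With no filter on low values the list median was 0.30, and over all 14 members, 4 of them in no cell, it was 0. In the same division at 12 h, given below, the 3 passing members had a median of -0.04.

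Cell cycle genes were widely detected and did not follow Sox2. Of 21 S phase genes 20 passed, 4 were at least 2-fold higher in Sox2-detected cells and 1 lower, with a median of -0.13. Of 21 G2 and M phase genes 20 passed, again 4 higher and 1 lower, with a median of -0.11. For each list that is 4 of 20 higher beside 17.6% of all genes, and 1 of 20 lower beside 15.3%. Pcna, the clamp of replicating polymerases, was above 0 in every cell at 286 ± 245 and 140 ± 251 TPM (log2 fold change 1.03), and Mcm2, a helicase subunit, had medians of 105 and 6.42 TPM (1.81). Rrm2, a subunit of ribonucleotide reductase, went the other way at 393 ± 239 and 620 ± 684 TPM. Tk1, thymidine kinase, was above 0 in 6 of 23 Sox2-detected and 11 of 14 Sox2-zero cells, with medians of 0 and 27.3 TPM. Bub1, a spindle checkpoint kinase gene, stood highest at 3.14 but turned to -1.94 with 5 shallower cells let in. Top2a, a topoisomerase of dividing cells, was above 0 in every cell at 362 ± 269 and 390 ± 200 TPM. Genes within each of the 2 lists thus lay on both sides.

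Scores per cell gave the same picture. A score was the mean of log2(TPM + 1) over a list. The core pluripotency score had a Spearman correlation of 0.113 with Sox2 and 0.607 with genes detected over the 37 cells, and the formative and primed score 0.165 and 0.752. For the S phase score the values were -0.123 and 0.418, and for the G2 and M phase score 0.146 and 0.586. The scores moved with the number of genes detected, which enters both quantities, more than with Sox2.

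Housekeeping and stress genes were examined for differences in cell quality. Of 14 matched housekeeping genes 11 passed, 1 was at least 2-fold higher and 0 lower, with a median of 0.46, higher than that of the core list. For this and the next lists, the shares over all passing genes were 17.6% higher and 15.3% lower. Ppia, cyclophilin A, was above 0 in all cells at 7992 ± 2709 and 5764 ± 2412 TPM, Actb had 18617 ± 6378 and 19468 ± 6313 TPM, and Ywhaz 1172 ± 457 and 1146 ± 340 TPM. Of 11 glycolysis genes, all passing, 1 was lower, the triosephosphate isomerase gene Tpi1 at -1.60. Immediate early genes, which mark dissociation stress, were divided: 3 of 12 passed, with a median of 0.51, and 4 were in no cell, Fos among them. Btg2 was above 0 in 29 of 37 cells at a mean of 263 TPM, Ier2 in 28 at 114 TPM and Dusp1 in 15 at 15.3 TPM. Of 16 stress and p53 genes 10 passed, 1 higher and 2 lower. The higher gene was Cdkn1a (p21), the p53-induced brake on the cell cycle. Its medians were 86.4 and 14.4 TPM, and it was above 0 in 22 of 23 Sox2-detected cells (95.7%, 78.1 to 99.9%) and 7 of 14 Sox2-zero cells (50.0%, 23.0 to 77.0%). Its log2 fold change of 1.63 stayed above 0 in all 13 alternatives (0.26 to 3.15). As for Vim, the intervals hold counting error only and do not test the groups against each other. Other p53 targets did not move together: Mdm2 lay at 0.99, Ccng1 at 0.21, Pmaip1 at -1.24 and Sesn2 at -2.85. The part of cell quality in any difference was not tested.

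Over all passing genes 2-fold differences were common, but they were rare among genes seen in every cell. Of 5361 passing genes 1765 (32.9%) were at least 2-fold apart. Of the 462 genes above 0 in all 37 cells, 6 were at least 2-fold higher in Sox2-detected cells (1.3%) and 8 lower (1.73%). The higher ones were Dppa5a, Pcna, Topbp1 (1.52), Gdi2 (1.11), Txnl4a (1.00) and an unnamed gene model. The lower ones were Snd1 (-1.59), Ifnar1 (-1.45), Rfesd (-1.34), Lrrc58 (-1.30), Ktn1 (-1.22), Rfc1 (-1.21), Srsf9 (-1.03) and an unnamed model. Topbp1, Rfc1 and Pcna act in DNA replication and its checkpoint, and lay on both sides. A value above 0 in every cell favours abundant genes, so the small share belongs to genes of high level.

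The genes with the highest and lowest fold changes were each listed at 0 in many cells. The 10 highest named genes were Ap2s1, Mrps6, Cep250, Ift74, Lrpap1, Zfp820, Ttn, Rexo4, Lta4h and Os9, with log2 fold changes of 4.76 or more. Ap2s1, a clathrin adaptor subunit, led at 7.03, above 0 in 12 of 23 and 1 of 14 cells. Zfp820 was above 0 in 12 of 23 Sox2-detected cells and listed at 0 in all 14 others. Its place among the 10 thus depends on the 1 TPM added to each mean, and its own fold is not given. Within Sox2-detected cells the top cell held a median of 41.9% of the summed level of these 10 genes, against 27.6% over all passing genes. The 10 lowest, Alkbh4, Ubap1, Pbk, Usf2, Zdhhc2, Bop1, Fam96b, Pot1a, Cdipt and Prdm4, had -4.30 or less. Zdhhc2, a palmitoyltransferase, was above 0 in 1 of 23 Sox2-detected and 9 of 14 Sox2-zero cells. Ttn, the giant muscle protein titin, was above 0 in 9 of 23 and 3 of 14 cells and its highest value was 453 TPM. The most variable passing genes, Zfp653, Exoc3, Cflar, Cbr4, Tctn2 and Xrcc6bp1, had coefficients of variation of 5.11 to 5.69, and each had 1 cell of 463 TPM or more.

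The share of cells differed by at least 40 percentage points for few genes. It was that much higher in Sox2-detected cells for 39 genes (0.727%) and lower for 30 (0.56%), a limit chosen after the values were seen. Among listed genes these were Vim and Cdkn1a on the higher side and Tk1 and Dnmt1 on the lower.

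The genes ranked closest to Sox2 over the 37 cells were Adc (rho 0.600), Slc23a1 (0.596), Dppa5a (0.593), Ak1 (0.564), Zfr (0.555) and Nop10 (0.547). The lowest were Arl6ip4 (-0.646), Tnrc6c (-0.620), Pdcd5 (-0.594) and Zdhhc2 (-0.571), and the 1st and 99th percentiles of all passing genes were -0.40 and 0.43. Nop10, a protein of the snoRNPs that modify ribosomal RNA, had medians of 377 TPM in Sox2-detected and 22.8 TPM in Sox2-zero cells. Ak1, adenylate kinase, was above 0 in 18 of 23 and 3 of 14 cells. Arl6ip4 was above 0 in all 14 Sox2-zero cells, at a median of 244 TPM, and in 13 of 23 Sox2-detected cells, at a median of 14.4 TPM. Within the 23 Sox2-detected cells the correlation was 0.125 for Adc and -0.518 for Arl6ip4, so the relation of Adc lay mainly between the groups and that of Arl6ip4 also within one. The cells share 1 sample, the library batch of each is not known, and these are the extremes of 5361 values.

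The same division was made at 12 h, in cells the 0 h division did not use and where Sod1 was also very abundant (a mean of 53733 TPM). Of 52 kept 12 h cells 10 were Sox2-detected and 42 Sox2-zero, with medians of 4594.5 and 4221.5 genes. Of 4983 passing genes 13.0% were at least 2-fold higher in the Sox2-detected cells and 20.7% lower. Among the 4306 genes that passed at both times, 100 were higher at both. They made up 15.6% of the 640 higher at 0 h, where 11.9% of all 4306 were higher at 12 h, and 19.5% of the 513 higher at 12 h, where 14.9% of all were higher at 0 h. Lower at both times were 121 genes, 21.0% of the 575 lower at 0 h against 18.3% of all lower at 12 h. The opposite direction was also more frequent than in all genes: 181 genes were higher at 0 h and lower at 12 h, 28.3% of the 640 against 18.3%, and 107 were lower and then higher, 18.6% of the 575 against 11.9%. Most genes set apart by Sox2 at 0 h were thus not set apart the same way at 12 h. Of the 12 core pluripotency genes that passed at both times, 3 were at least 2-fold higher at 12 h and 0 lower, with a median of 0.36. The 3 were Pou5f1 (1.36, above 0 in 2 of 10 and 12 of 42 cells), Gdf3 (1.11, in 3 of 10 and 12 of 42) and Dppa5a. Fgf4 and Tdgf1 failed the filter at 12 h: Fgf4 was above 0 in 1 of 10 and 2 of 42 cells, and Tdgf1, a Nodal co-receptor, was listed at 0 in all 10 Sox2-detected cells and above 0 in 5 of 42 others.

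Dppa5a was among the 100 genes higher at both times. At 12 h the Sox2-detected cells averaged 2283 TPM and the Sox2-zero cells 1087 TPM, a log2 fold change of 1.07 beside 1.14 at 0 h. At 6, 24, 30 and 36 h the values were 0.67, 1.13, 0.53 and 1.47, the last from 4 Sox2-detected cells, and at 18 h -0.79. At 18 h the median was higher in Sox2-detected cells, 424 against 318 TPM, opposite to the means. At 24 h the medians were nearly equal, 457 and 415 TPM. Nop10 (1.02) and Zfr (1.64) also had the 0 h direction at 12 h, whereas Ak1 (-1.48) and Slc23a1 (-1.77) had the other, as did Adc (-3.31), which failed the filter at 12 h. Cdkn1a was at -0.02, Vim at -1.03, Lifr at 1.14 and Pim2 at -0.94. Of the 10 genes highest at 0 h, 3 were at least 2-fold higher and 3 at least 2-fold lower at 12 h, with no filter set there.

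**Figure D5:**
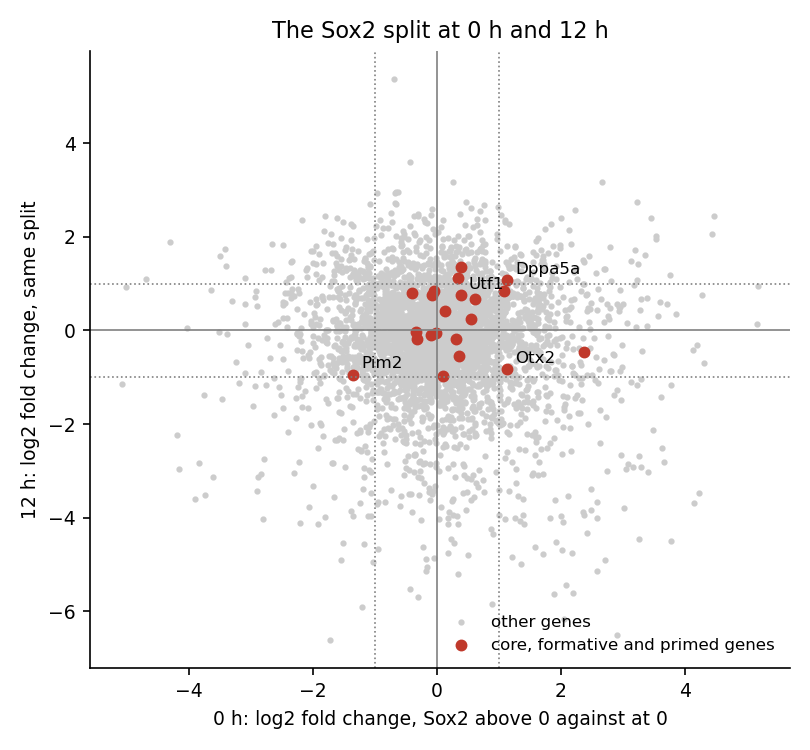
Each point is a gene that passed at both times, by its log2 fold change between Sox2-detected and Sox2-zero cells at 0 h (x axis) and 12 h (y axis), with core, formative and primed genes in red and dotted lines at 2-fold. The grey cloud has no evident slope, and Dppa5a lies in the upper right at 1.14 and 1.07.

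Sox2 itself was detected most often before doxycycline. The share of kept cells above 0 was 62.2% of 37 at 0 h, 34.0% of 53 at 6 h (21.5 to 48.3%) and 19.2% of 52 at 12 h (9.63 to 32.5%). At 18, 24 and 30 h the shares were 25.0%, 20.0% and 24.6%, at 36 h 9.09% of 44, and at 48 h it was listed at 0 in all 14 cells, which allows up to 21.4%. Mean Sox2 over kept cells stood at 36.8 TPM before doxycycline and 6.76 TPM at 12 h. The kept cells had a median of 5304 genes at 0 h, 7484 at 6 h and 4268.5 at 12 h. The part of depth in these shares was not tested. The 6, 18, 24 and 30 h cells had far less Sod1 than the others (731 TPM at 6 h against 65262 TPM at 0 h), and time and whatever goes with this difference in Sod1 cannot be told apart between those times and 0 h.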

How the data were processed

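The authors deposited 1 table of TPM values, 27723 genes by 768 cells, in which columns sum to 1000000 within rounding. Per the submitters' processing notes, bcl2fastq, Picard and mm10 were used, with aligner and annotation not given in the sources used here. Depth is unknown, as TPM holds no reads, and genes above 0 stood in for it. Per the labels, reads were 50 bp, single-end, 325000 per cell on average, without molecular tags, in 2 library batches not tied to cells, so within-batch values could not be had. The 0 h cells were taken from the labels, and 0 pairs of their columns were identical.

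Computed here, with scipy 1.17.1, pandas 2.3.3 and numpy 2.4.6 under Python 3.11.15 (figures with matplotlib 3.10.9), were means, shares with exact 95% (Clopper-Pearson) intervals, differences of log2(mean TPM + 1) and Spearman correlations. No test was made, as each time point is 1 sample. A share of 0 is given with 3 cells over the number of cells. Of 276 list genes, 269 matched by symbol and 5 by synonym. Members and lists were chosen with earlier results of these data known. Named were the 10 highest and 10 lowest folds, the 6 highest and 4 lowest correlations, the 6 most variable and the 5 most abundant genes, leaving out unnamed models, and up to 4 members per list with the largest fold, with all members of the core, Sox, naive, and formative lists. Other names were chosen after their values were seen. Alternatives changed the pseudocount, scaling, filter, cells kept, averaging, Sox2 limit and depth matching. One core pluripotency gene counted among the list members is not reported here by name.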

Additional observations from a re-analysis of the deposited data

How the results depend on the processing

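No paired analysis was possible because cell numbers only name cells and the result comes from no test. Of 1495 values for 115 named genes, each recomputed under 13 alternatives, 138 had the other sign, in 64 genes. Among the 58 genes at least 2-fold apart, 31 values had the other sign, in 19 genes. Genes 2-fold higher numbered 943 and genes 2-fold lower 822, against 3555 and 2789 with no filter. With a pseudocount of 10 TPM the lower count was 545. In cells above the median of genes detected (13 Sox2-detected, 5 Sox2-zero) the higher count was 1630, and in cells at or below it (10 and 9) the lower count was 1375. These 2 splits by depth were added after seeing the data. The Sox2 share, 62.2%, was 24.0% with no cell left out, 37.8% at 10 TPM or more and 5.41% among the 1000 highest genes of a cell.

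Of list medians, the Sox family (-0.28) was 0.34 with no filter, 0.66 with Sox2 at 10 TPM or more and 0.11 in depth-matched cells. Immediate early genes (0.51) were at 0.85 when each gene's highest cell was dropped and 0.31 with Sox2 at 10 TPM or more. Neural progenitor genes (2.21) were at 0.30 with no filter, and trophoblast genes (0.41) at 1.10 in cells above the median depth.

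Of genes at least 2-fold apart, those that changed sign were as follows. With cells of at least 4000 genes, Cflar was at 0.93, and with cells of at least 1000 genes Bub1 was at -1.94. Without the highest cell Dnmt1 was at -0.83. With the mean of log2 values Dnmt1 was at -0.997, Lefty1 at -0.12 and Tet3 at 0.22. With Sox2 at 10 TPM or more, Dnmt1 was at -2.69, Ift74 -0.35, Lta4h -3.01, Zfp653 -3.40, Exoc3 -3.54, Cbr4 -2.63, Tctn2 -2.91, Xrcc6bp1 -3.11, Slbp -0.16, Aurkb 0.077 and Kif20a -0.32. In depth-matched cells (14 and 14) Exoc3 was at -0.63, Otx2 -0.37 and Kif20a -0.79. In cells above the median depth Alkbh4 was at 1.23, Zfp653 -0.032, Exoc3 -1.35, Cflar 2.18, Cbr4 -0.97 and Tet3 3.15. In cells at or below it Otx2 was at -0.98, Hes1 -0.38, Dazl 2.11, Slbp -0.77 and Lefty1 -2.70. The cause was not tested. Dppa5a was higher in Sox2-detected cells in 13 of 13. The alternatives all draw on cells of the same 0 h sample, so this count is not independent support.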
